A study of Homo sapiens with 6 samples.

Results

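The genes described here encode the subunits of the proteasome and the proteins that assemble, activate or inhibit it. They are the 48 rows of the deposited count table, of 63299 in all, whose name is PSM followed by a letter from A to G and a number, and which lie on a reference chromosome. Another 17 rows with such a name lie on alternative scaffolds and held 0 reads in all 6 libraries. The libraries measured RNA in LNCaP cells, an androgen-dependent line of human prostate cancer. The knockdown group is 3 libraries of LNCaP cells with a short hairpin RNA against MEP50, marked Dox+ (doxycycline present), and the control group is 3 libraries of LNCaP cells with no knockdown, marked Dox-. MEP50, encoded by WDR77, is the partner of the arginine methyltransferase PRMT5. No library had doxycycline without the knockdown, so drug and knockdown cannot be told apart. The time in doxycycline, the sequence of the hairpin and whether the line is 1 clone are not given in the sources used here. The comparison asks how lowering MEP50 alters gene expression in these cells.

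The proteasome degrades proteins that carry chains of ubiquitin. Its core is a barrel of stacked rings: the alpha subunits (PSMA genes) form the outer rings and gate the entrance, and the beta subunits (PSMB genes) form the inner rings, where PSMB5, PSMB6 and PSMB7 hold the active sites. The 19S regulatory particle caps the barrel. Its base holds a ring of ATPases (PSMC genes) that unfold the substrate and subunits that recognise ubiquitin, and its lid, made of PSMD subunits, removes ubiquitin. In cells exposed to interferon, PSMB8, PSMB9 and PSMB10 take the place of PSMB5, PSMB6 and PSMB7 and form the immunoproteasome, which makes peptides for antigen presentation. PSMA and PSMB here are gene names and have no relation to the prostate-specific membrane antigen, which is encoded by FOLH1.

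The knockdown libraries held 18568002 to 36001219 counts on genes and the control libraries 27509105 to 36234784. WDR77 had 15.0, 14.0 and 12.7 CPM in the knockdown libraries, against 49.3, 47.2 and 36.7 CPM in the control libraries (log2 fold change -1.67, adjusted p 0.00131, edgeR), where CPM is counts per 1e6 counts of the library, its size scaled by the trimmed mean of M-values. All 9 luminal prostate markers looked at were expressed, and their summed level was 4213, 4493 and 4095 CPM in the knockdown libraries, against 6780.0, 7025 and 8336 CPM in the control libraries. The groups did not overlap, and of these markers KLK3, KRT18, KLK2 and TMPRSS2 fell. KLK3 was called whichever library was left out, while KLK2 was called in 2 and KRT18 and TMPRSS2 in 1 of the 6 fits without 1 library (edgeR adjusted p up to 0.0827, 0.0723 and 0.117). Of the 3 basal markers KRT5 was at 0 in all libraries, and the sum of the 3 was at most 0.229 CPM in knockdown and 1.11 CPM in control. The 5 immune markers, PTPRC among them, summed to at most 0.641 CPM in a library, and the 4 stromal markers to 14.5 to 17.4 CPM in knockdown and 8.54 to 18.1 CPM in control. The part of the luminal shift in the proteasome values was not tested. In RNA of whole cultures, fewer cells with a transcript and less of it per cell cannot be told apart.

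The constitutive core and the 19S particle are encoded by 31 tested genes with PSM names. Of these 30 had a lower mean level in MEP50 knockdown, mostly by a moderate amount. The 3 tested immunoproteasome genes did not, but none of them was called in either direction. PSMB8 and PSMB9 held at most 37 reads in a library, too few to show a fall of the size of that of PSMB5. PSMB10 shares 58.3% of its coding bases with another gene. Of the 48 genes 46 had enough reads to be tested, and 37 of these had a negative log2 fold change (knockdown minus control), as had 49.8% of all tested genes. A change was called where edgeR's quasi-likelihood test gave a Benjamini-Hochberg adjusted p under 0.05 over all 21101 tested genes. By that rule 6 proteasome genes fell (4.88% of all tested genes did) and 1 rose (2.72% of all tested genes did). DESeq2 called 9 lower (6.82% of all tested genes) and 1 higher (4.26%). At an unadjusted p under 0.05 edgeR had 26 lower (14.3% of all tested genes). The genes that fell were PSME3, PSMC3, PSMC5, PSMD2, PSMD11 and PSMD3, and the gene that rose was PSMG4. The median log2 fold change was -0.37 over the 46 proteasome genes and 0.00 over all tested genes. Without control replicate 1 the median of the proteasome genes was -0.24.

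The libraries of the same number deviated together, so that the replicate number was also fitted as a block. With the block 30 of the 46 genes fell (14.9% of all tested genes did) and 2 rose, PSMG4 and PSME4 (11.2% of all tested genes did). The 7 calls made without it were among these 32. In 21 genes every knockdown library was below every control library, and the share of all tested genes that did this was 17.0%. In 34 genes the knockdown library was below the control library of the same number in each of the 3 pairs, as were 28.9% of all tested genes. Abundant genes fell more often than others in these data. Among the 6768 tested genes with a mean of at least 32 CPM, 9.25% fell and 2.29% rose without the block, and 26.4% fell and 10.4% rose with it. Above that level were 40 proteasome genes, of which 6 fell and 1 rose without the block, and 30 fell and 2 rose with it. Their groups were separate, knockdown lower, in 21, against 26.8% of all genes at that level. The median log2 fold change at that level was -0.40 over the 40 proteasome genes and -0.10 over all tested genes. Of the 40 genes 37 had a negative value, against 62.5% of all tested genes at that level. In 34 of them knockdown was lower in all 3 pairs, against 42.8%. Leaving out single libraries turned the 6 falls into 2 (knockdown replicate 2) or 3 (knockdown replicate 3 or control replicate 1). Without control replicate 3 there were 4 falls, without control replicate 2 there were 12, and without knockdown replicate 1 there were 6. The single rise ended on removing knockdown replicate 2 or 3 or control replicate 3.

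**Figure D1:**
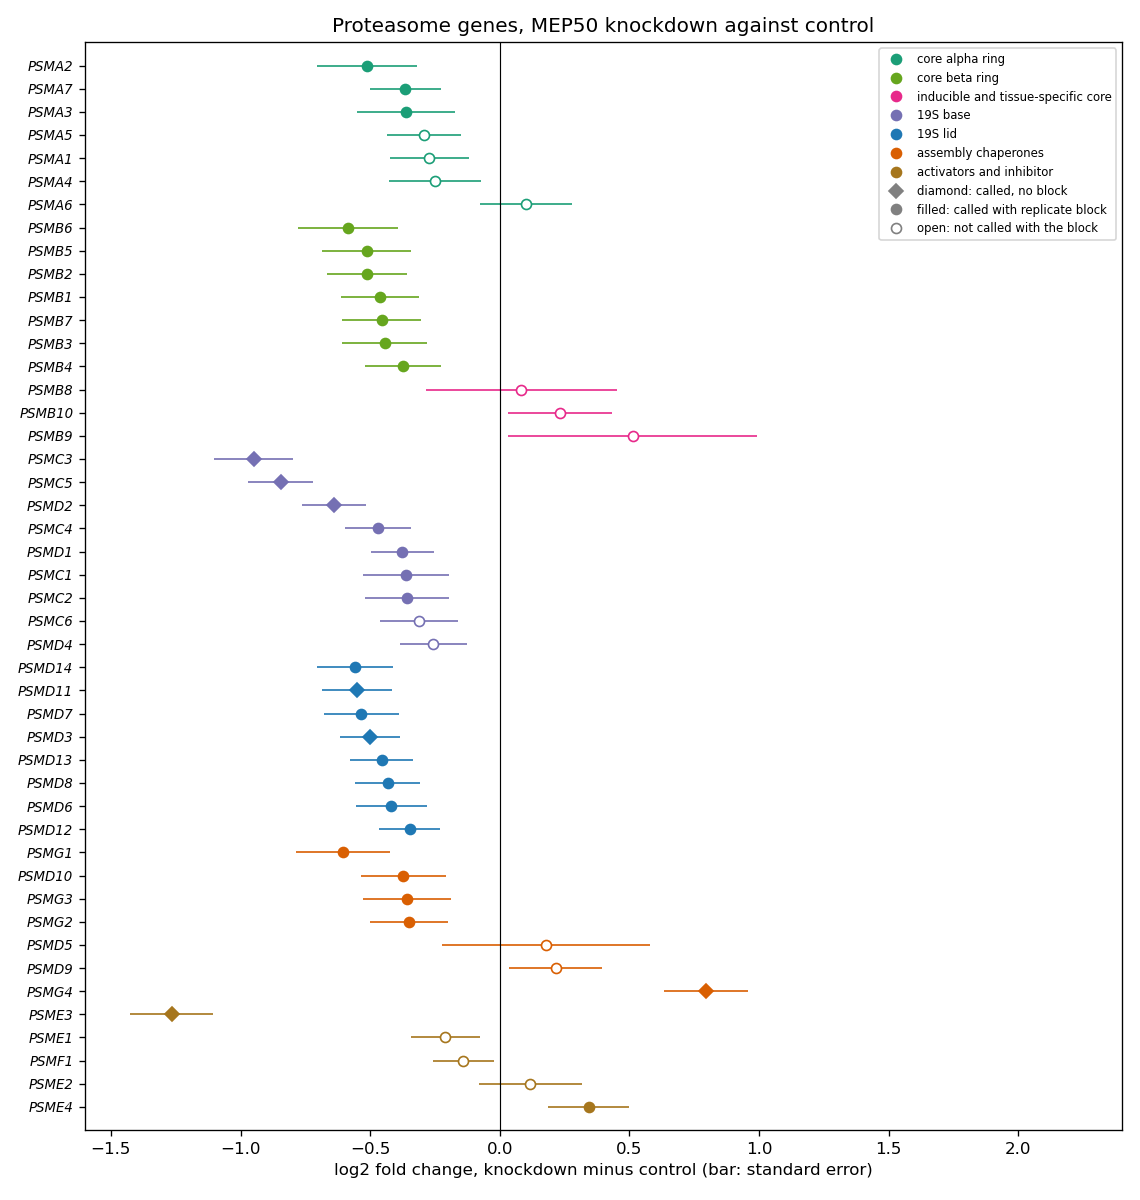
Log2 fold change (knockdown minus control) with its standard error for the 46 tested proteasome genes, ordered by role and coloured by role, with 3 libraries per group. Diamonds are the 7 genes called without the block, and filled symbols the 32 genes called with it. Nearly all core and 19S genes lie left of 0, and the immunoproteasome genes, none of them called, lie right of it.

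Within the 19S base all 9 genes with PSM names had negative log2 fold changes, from -0.95 to -0.26, with a median of -0.38. Of them 3 fell without the block and 7 with it, where 4.88% and 14.9% of all tested genes fell. All 9 had a mean of at least 32 CPM, and of the tested genes at that level 9.25% and 26.4% fell. The largest difference was in PSMC3, an ATPase of the unfolding ring (ENSG00000165916.8, chromosome 11, 47418769 to 47426473, minus strand, hg38). It had 104, 83.7 and 89.6 CPM in the knockdown libraries, against 213, 159.7 and 163 CPM in the control libraries. Each knockdown library was below each control library, and the means were 92.4 ± 10.4 CPM in knockdown and 178 ± 29.9 CPM in control (SD, n = 3 libraries each). PSMC3 fell by a log2 fold change of -0.95 (SE 0.15) at an adjusted p of 0.00898 in edgeR, which was 0.0535 when knockdown replicate 2 was left out. PSMC5, another ATPase of the ring (ENSG00000087191.12, chromosome 17, 63827152 to 63832026, plus strand), had 84.8, 70.9 and 74.6 CPM in the knockdown libraries, against 136, 129 and 149 CPM in the control libraries. These groups were also separate (log2 fold change -0.85 with an SE of 0.12, edgeR adjusted p 0.00602), and PSMC5 was called whichever library was left out. Of the coding bases of PSMC5 10.5% lie in exons of FTSJ3 on the other strand. FTSJ3 had a log2 fold change of -0.57 and separate groups. It was not called without the block (edgeR adjusted p 0.0613) and fell with it (0.000815). The strand setting of the counting is not given in the sources used here.

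PSMD2 encodes a scaffold of the base that docks ubiquitin-binding shuttle proteins. It had 283, 279.8 and 272 CPM in the knockdown libraries, against 481, 415 and 406 CPM in the control libraries. The knockdown libraries were close together, and their mean was 64.2% of the control mean (log2 fold change -0.64, SE 0.12, adjusted p 0.0172, edgeR). Removing knockdown replicate 2 or 3 or control replicate 1 ended the call of PSMD2 (adjusted p up to 0.0812). The other 6 base genes, PSMC4, PSMD1, PSMC2, PSMC1, PSMC6 and PSMD4, had log2 fold changes from -0.47 to -0.26 and were not called without the block. With it PSMC4 (0.00316), PSMD1 (0.0165), PSMC2 (0.0212) and PSMC1 (0.0375) were called by adjusted p. PSMC6, an ATPase, and PSMD4, a ubiquitin receptor, were not (0.0501 and 0.0717). In PSMC4 and PSMD1, a scaffold like PSMD2, the groups did not overlap. In PSMC1, PSMC2, PSMC6 and PSMD4 they did.

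In the 19S lid all 8 genes with PSM names were lower in each knockdown library than in any control library (17.0% of all tested genes were). The log2 fold changes were from -0.56 to -0.35, with a median of -0.48. Without the block 2 fell, and with it all 8 did (4.88% and 14.9% of all tested genes fell). All 8 had a mean of at least 32 CPM. Of the tested genes at that level 26.8% were separate that way, 9.25% fell without the block and 26.4% fell with it. PSMD3, a scaffold subunit of the lid, had 141, 142 and 140.5 CPM in the knockdown libraries, against 221, 190.2 and 188 CPM in the control libraries. The knockdown libraries thus lay within about 1 CPM of each other, with means of 141 ± 0.535 CPM in knockdown and 199.6 ± 18.5 CPM in control (SD, n = 3 each). This is a log2 fold change of -0.50 with an SE of 0.12 (edgeR adjusted p 0.0355). PSMD11, also a scaffold subunit, had 107, 87.2 and 91.7 CPM in the knockdown libraries, against 158, 132 and 128 CPM in the control libraries. The fold change of PSMD11 was -0.55 on the log2 scale (SE 0.14, adjusted p 0.0433). Either call ended when most single libraries were left out. PSMD3 was then called only without control replicate 2 and PSMD11 only without knockdown replicate 1, with adjusted p up to 0.152 and 0.168. PSMD11 also missed the threshold with RLE scaling (0.0545) and with library totals alone (0.0553).

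PSMD14 is the metalloprotease that cuts ubiquitin chains from the substrate as it enters. It had 93.4, 84.6 and 75.2 CPM in the knockdown libraries, against 143, 106 and 124 CPM in the control libraries. The groups were separate, and the adjusted p was 0.0516 without the block and 0.00217 with it (log2 fold change -0.56, edgeR). Its partner in that module, PSMD7, had a log2 fold change of -0.53 and adjusted p of 0.0567 and 0.00370 in the same order. PSMD13, PSMD8, PSMD6 and PSMD12 had log2 fold changes of -0.46, -0.43, -0.42 and -0.35. For PSMD7 28.4% of the coding bases lie in exons of AC009120.6 on the other strand, which had 42.2 CPM in knockdown and 58.2 CPM in control (log2 fold change -0.46, not called without the block).

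**Figure D2:**
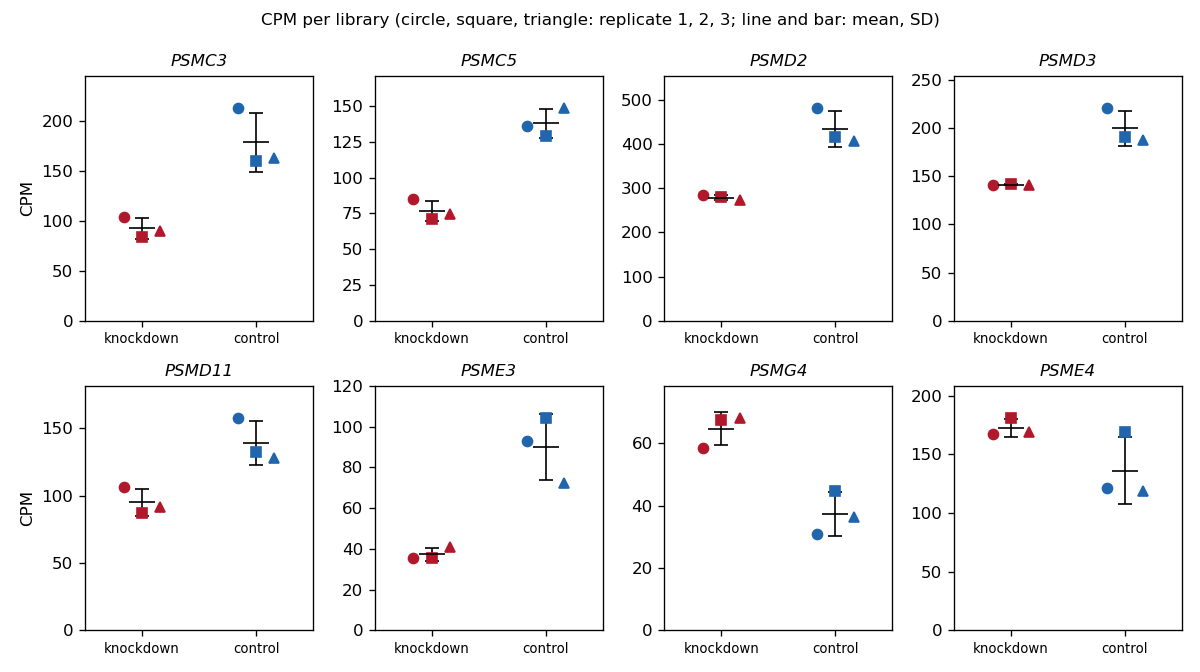
CPM in each library for the 7 genes called without the block and for PSME4, with knockdown left of control, the mean as a line and the SD as a bar. In all panels but that of PSME4 the 3 knockdown libraries are separate from the 3 control libraries; PSMG4 is the called gene that is higher in knockdown.

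In the beta ring of the core all 7 genes had negative log2 fold changes, from -0.59 to -0.37 (median -0.46). In each the knockdown library was below its control in all 3 pairs, as in 28.9% of all tested genes and 42.8% of those with at least 32 CPM. Without the block edgeR called 0 of the 7, all 7 were below an unadjusted p of 0.05, and DESeq2 and limma-voom called 0. With the block all 7 fell (14.9% of all tested genes and 26.4% of those with at least 32 CPM did). PSMB5, the chymotrypsin-like site and the main target of proteasome inhibitor drugs (ENSG00000100804.18, chromosome 14, 23016543 to 23035230, minus strand), had 175, 144 and 134 CPM in the knockdown libraries, against 264, 180.1 and 203 CPM in the control libraries. The highest knockdown library, replicate 1, lay just below the lowest control library, replicate 2. The log2 fold change of PSMB5 was -0.51 (SE 0.17, adjusted p 0.1003 and 0.00311 with the block, edgeR). PSMB6, the caspase-like site, had 109, 71.4 and 80.5 CPM in the knockdown libraries, against 155, 105 and 132 CPM in the control libraries. Here knockdown replicate 1 was above control replicate 2, so that the groups overlapped (log2 fold change -0.59, adjusted p 0.1003 and 0.000827 with the block). PSMB7, the trypsin-like site, had 95.9, 76.8 and 78.9 CPM in the knockdown libraries, against 132, 96.1 and 117 CPM in the control libraries. Its groups met at knockdown replicate 1 and control replicate 2 without crossing (log2 fold change -0.46, adjusted p 0.105 and 0.00506 with the block).

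The noncatalytic beta subunits gave like values. PSMB2 had 90.7, 65.7 and 89.8 CPM in the knockdown libraries, against 127, 117 and 106 CPM in the control libraries. PSMB1 had 115, 122 and 102 CPM in the knockdown libraries, against 175, 126 and 166 CPM in the control libraries. Both were separate between groups, with log2 fold changes of -0.51 and -0.46 and adjusted p of 0.0757 and 0.0951 without the block, edgeR. PSMB3 (-0.44) and PSMB4 (-0.37) overlapped between groups. In these noncatalytic genes the edgeR adjusted p with the block was between 0.00575, for PSMB2, and 0.0250, for PSMB4.

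In the alpha ring 6 of 7 genes had negative log2 fold changes, the median was -0.29, and the group ranges were separate in 1, PSMA7. Without the block edgeR, DESeq2 and limma-voom called 0, with 2 below an unadjusted p of 0.05 in edgeR. With the block 3 fell (14.9% of all tested genes and 26.4% of those with at least 32 CPM did). PSMA7 had 183, 201 and 163 CPM in the knockdown libraries, against 267, 217 and 221 CPM in the control libraries (log2 fold change -0.37, adjusted p 0.137 and 0.0274 with the block, edgeR). PSMA2 had 46.9, 34.2 and 39.6 CPM in the knockdown libraries, against 72.4, 46.7 and 52.8 CPM in the control libraries, and knockdown replicate 1 just passed control replicate 2 (-0.51, adjusted p 0.137 and 0.00397 with the block). PSMA5 had 139, 135 and 126 CPM in the knockdown libraries, against 188, 136 and 166 CPM in the control libraries, with knockdown replicate 1 above control replicate 2 (-0.29, adjusted p 0.239 and 0.0770 with the block). PSMA3 (-0.36) was called with the block, and PSMA1 (-0.27) and PSMA4 (-0.25) were not. PSMA6 alone had a positive value (0.10), with 10.4, 9.43 and 8.20 CPM in the knockdown libraries, against 9.70, 7.89 and 8.56 CPM in the control libraries. A difference between the alpha and beta rings was not tested.

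PSMA6 was far below the other alpha genes, and it shares exons with another gene. Per kilobase of the table's exons, the control mean was 1.34 CPM for PSMA6, while the other 6 alpha genes had 10.7 (PSMA2) to 134 (PSMA7). Of the coding bases of PSMA6 in GENCODE 29, 70.4% lie in exons of RP11-561B11.2, another gene on the same strand, which itself held at most 0.171 CPM. The same holds for PSMA2, with 97.1% of its coding bases in RP11-111K18.1 (at most 0.133 CPM), and for PSMA1, with 88.6% in RP11-140L24.4 (0 reads). The other 4 alpha genes share no coding base with another gene of the table, and PSMA6, PSMA2 and PSMA1 were the 3 lowest of the ring per kilobase. Some 19S genes with little or no shared coding sequence were as low as PSMA1 (19.4 CPM per kilobase): PSMD6 at 14.5, PSMC6 at 15.0 and PSMD14 at 16.1 share none, and PSMD11 at 19.4 shares 6.53%. PSMD7, with 28.4% shared, was at 46.5. Among the base genes PSMC1, the lowest per kilobase (9.40 CPM in control), shares 47.7% with NRDE2 on the other strand. How the counting treated reads that fit more than 1 gene is not given in the sources used here, so that the part of shared exons in these levels was not tested. Levels per kilobase also depend on the table's exon lengths, which join all annotated transcripts.

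**Figure D3:**
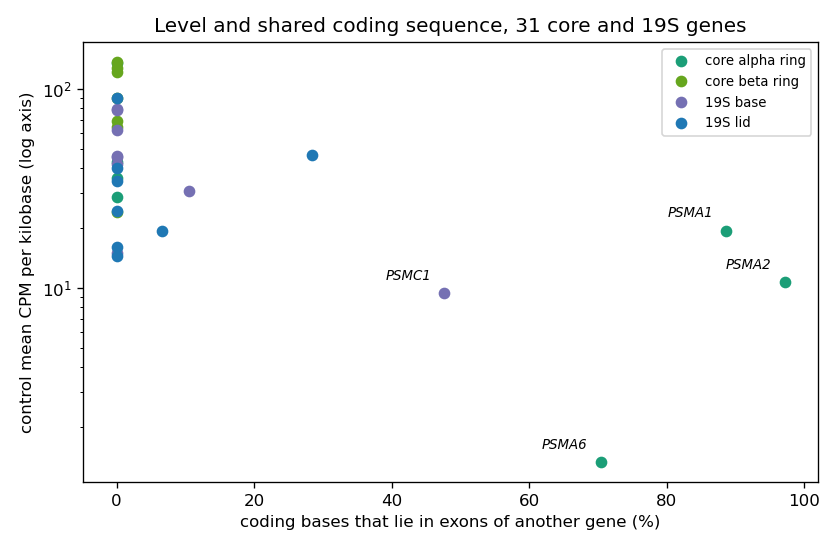
Control mean level (CPM per kilobase of exon, log axis) of the 31 core and 19S genes against the percentage of their coding bases that lie in exons of another gene. The genes above 40%, PSMA2, PSMA1, PSMA6 and PSMC1, are labelled and lie at 19.4 CPM per kilobase or less.

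Over the 31 constitutive core and 19S genes together, 5 fell without the block and 25 with it, and the median log2 fold change was -0.44. Of all tested genes 4.88% fell without the block and 14.9% with it. Among those with at least 32 CPM the shares were 9.25% and 26.4%. In 18 of the 31 genes the group ranges were separate (17.0% of all tested genes and 26.8% of those with at least 32 CPM were separate that way). Their summed level was 3876, 3517 and 3447 CPM in the knockdown libraries, against 5599.6, 4351 and 4931 CPM in the control libraries, so that the highest knockdown library stayed below the lowest control library. The libraries showed an order within groups. Control replicate 1 was the highest of all 6 libraries in 25 of the 31 genes, control replicate 2 was the lowest control in 26, and knockdown replicate 1 was the highest knockdown library in 23. The median ratio of knockdown to control of the same number was -0.49, -0.27 and -0.46 (log2) in pairs 1, 2 and 3, smallest in pair 2.

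**Figure D4:**
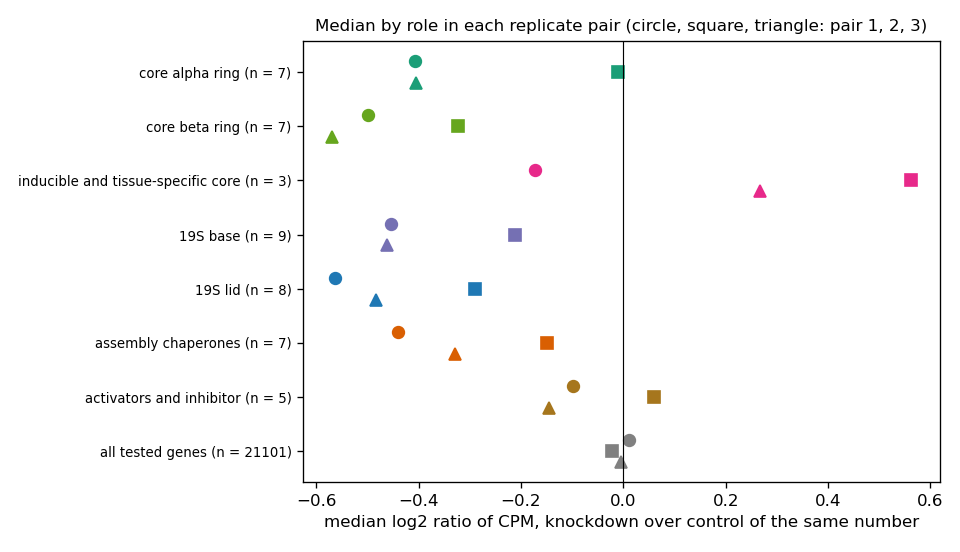
Median over the tested genes of each role of the log2 ratio of CPM, knockdown over the control of the same number, in the 3 replicate pairs, with all 21101 tested genes for comparison. The beta ring, base and lid are below -0.2 in each pair, the alpha ring is at -0.01 in pair 2, and the medians of all tested genes lie between -0.02 and 0.01.

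The immunoproteasome subunits were scarce, and edgeR called none of them with or without the block. PSMB8 (ENSG00000204264.8, chromosome 6, 32840717 to 32844703, minus strand) had 6, 20 and 12 reads in the knockdown libraries, against 14, 11 and 16 in the control libraries. These equal 0.321, 0.541 and 0.549 CPM in the knockdown libraries, against 0.543, 0.366 and 0.457 CPM in the control libraries, and the groups overlapped (log2 fold change 0.08, SE 0.37, adjusted p 0.920, edgeR). PSMB9, a close neighbour of PSMB8 in the class II region of the major histocompatibility complex, had 18, 37 and 13 reads in the knockdown libraries, against 28, 9 and 16 in the control libraries. This is 0.964, 1.00 and 0.595 CPM in the knockdown libraries, against 1.09, 0.300 and 0.457 CPM in the control libraries, so that control replicate 1 was the highest of the 6 libraries. The log2 fold change of 0.51 had an SE of 0.48 (adjusted p 0.551, edgeR). PSMB10, on chromosome 16, had 4.34, 4.70 and 4.95 CPM in the knockdown libraries, against 3.38, 4.23 and 4.28 CPM in the control libraries. Per kilobase of exon it was the most abundant of the 3, at 2.52 in knockdown and 2.14 in control, while PSMB9 was at 0.278 in knockdown and 0.200 in control and PSMB8 at 0.235 in knockdown and 0.227 in control (mean CPM per kilobase). All 3 knockdown libraries of PSMB10 were just above the control libraries (13.4% of all tested genes did this), and the log2 fold change of 0.23 was not called (SE 0.20, adjusted p 0.513 and 0.352 with the block). Of its coding bases 58.3% lie in CTC-479C5.12 on the same strand. PSMB8 overlaps the antisense gene PSMB8-AS1, which held 6.27 CPM in knockdown and 5.86 CPM in control. At this depth a change of PSMB8 or PSMB9 of the size of the fall of PSMB5 was not detectable, since their standard errors were 0.37 and 0.48.

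Each inducible subunit was set against the constitutive subunit that it replaces, as a ratio of reads per base within a library, which does not depend on how libraries are scaled. PSMB10 was 4.36%, 5.91% and 6.05% of PSMB7 in the knockdown libraries and 2.47%, 4.25% and 3.53% in the control libraries. The groups did not overlap, and the log2 ratio was 0.69 higher in knockdown, higher in 3 of 3 pairs. PSMB9 was 0.416%, 0.660% and 0.349% of PSMB6 in the knockdown libraries and 0.331%, 0.134% and 0.163% in the control libraries, a log2 difference of 1.24. PSMB8 was 0.162%, 0.330% and 0.361% of PSMB5 in the knockdown libraries and 0.181%, 0.179% and 0.198% in the control libraries, with overlap and a difference of 0.53. The groups of PSMB9 over PSMB6 did not overlap either. The exact permutation test, two-sided, gave p = 0.1 for PSMB10 over PSMB7 and for PSMB9 over PSMB6, the smallest value that 3 against 3 libraries allow, and 0.4 for PSMB8 over PSMB5. Adjusted over the 3 ratios the p-values were 0.15, 0.15 and 0.4 (Benjamini-Hochberg, exact test), so that none passed. Of the first ratio, PSMB10 was 4.66 ± 0.306 CPM in knockdown and 3.96 ± 0.509 CPM in control, and PSMB7 83.8 ± 10.5 CPM in knockdown and 115 ± 18.0 CPM in control (SD, n = 3 each).

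**Figure D5:**
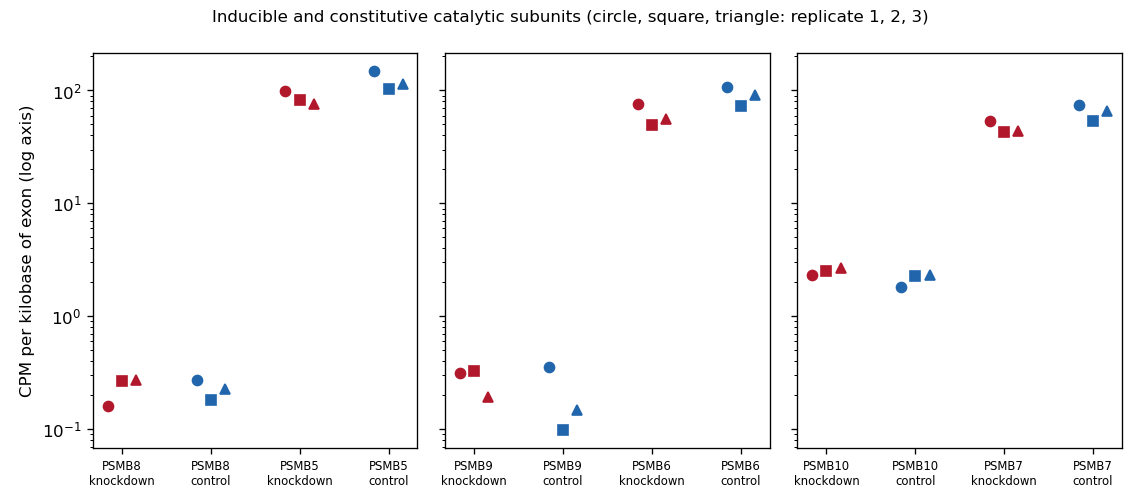
Level per kilobase of exon (CPM, log axis) in each library of the inducible subunits PSMB8, PSMB9 and PSMB10 and of the constitutive subunits PSMB5, PSMB6 and PSMB7 that they replace, with knockdown left of control. The inducible genes lie far below their counterparts in every library.

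The remaining core genes are expressed in single tissues and were not tested. PSMA8, an alpha subunit of the testis, had 1 read in knockdown replicate 2 and 0 in the other 5 libraries. PSMB11, the beta subunit of the thymus, had 0 reads in the knockdown libraries and 1 in each control library.

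Of the 5 activator and inhibitor genes 1 fell, PSME3 (4.88% of all tested genes fell). It encodes the nuclear activator that opens the core without ubiquitin or ATP (ENSG00000131467.10, chromosome 17, 42824385 to 42843758, plus strand). PSME3 had 35.6, 35.4 and 41.1 CPM in the knockdown libraries, against 92.9, 104 and 72.3 CPM in the control libraries, and its means were 37.4 ± 3.25 CPM in knockdown and 89.9 ± 16.3 CPM in control (SD, n = 3 each). The highest knockdown library was far below the lowest control library. The log2 fold change of -1.27 (SE 0.16; edgeR adjusted p 0.00355) was the lowest of the 46 proteasome genes, and it was called whichever library was left out, with log2 fold changes from -1.41 to -1.16. Exons of other genes, mainly BECN1, overlap 5.82% of its exon bases. PSME4, a large nuclear activator linked in mammals to the breakdown of acetylated histones, had 168, 181 and 169 CPM in the knockdown libraries, against 121, 169 and 119 CPM in the control libraries. Control replicate 2 lay among the knockdown libraries, so the groups overlapped. PSME4 was not called without the block (log2 fold change 0.34, SE 0.15, adjusted p 0.211) and rose with it (0.0272, edgeR), and it was also called without control replicate 2.

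PSME1 and PSME2, neighbours on chromosome 14, encode the subunits of the activator induced by interferon. PSME1 had 64.0, 67.2 and 55.6 CPM in the knockdown libraries, against 79.2, 64.5 and 72.6 CPM in the control libraries (log2 fold change -0.21, adjusted p 0.367, edgeR). PSME2 had 117, 94.9 and 77.2 CPM in the knockdown libraries, against 112, 75.8 and 78.7 CPM in the control libraries (0.12, adjusted p 0.761). Both overlapped between groups and neither was called with the block (0.189 and 0.427). The inhibitor gene PSMF1 had 79.5, 82.0 and 89.2 CPM in the knockdown libraries, against 85.1, 92.8 and 98.6 CPM in the control libraries, with overlap (-0.14, adjusted p 0.4996).

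Among the assembly chaperones PSMG4 was the proteasome gene that rose. PSMG4 pairs with PSMG3 to guide the alpha ring, and it (ENSG00000180822.11, chromosome 6, 3231403 to 3303373, plus strand) had 58.5, 67.4 and 68.3 CPM in the knockdown libraries, against 30.8, 44.8 and 36.4 CPM in the control libraries. The groups were separate, with means of 64.7 ± 5.40 CPM in knockdown and 37.3 ± 7.08 CPM in control (SD, n = 3 each) and a log2 fold change of 0.79 (SE 0.16, adjusted p 0.0213 and 0.000199 with the block, edgeR). The exons counted for PSMG4 overlap those of SLC22A23 on the other strand over 15% of their length and 6% of the coding bases. SLC22A23 itself had 110.4, 120.2 and 129 CPM in the knockdown libraries, against 32.1, 64.5 and 51.1 CPM in the control libraries, and rose by 1.28 on the log2 scale (adjusted p 0.0124, edgeR). Without a stated strand setting the reads of the shared bases cannot be told apart, and the part of SLC22A23 in the PSMG4 value was not tested. PSMG3, the partner of PSMG4, had a negative value (-0.36, adjusted p 0.228 and 0.0249 with the block).

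PSMG1 and PSMG2 form the other chaperone pair of the alpha ring. PSMG1 had 29.2, 28.4 and 24.3 CPM in the knockdown libraries, against 52.3, 36.9 and 35.5 CPM in the control libraries, with separate groups (log2 fold change -0.60, adjusted p 0.0749 and 0.00347 with the block, edgeR). PSMG2 had 47.0, 40.2 and 40.3 CPM in the knockdown libraries, against 63.8, 48.0 and 50.7 CPM in the control libraries, separate by a narrow gap (-0.35, adjusted p 0.189 and 0.0290 with the block). Of the chaperones of the 19S base, PSMD10, also known as gankyrin, fell with the block (-0.37, 0.0230). PSMD9 was not called (0.22) and shares 58.7% of its coding bases with RP11-87C12.2 on the same strand. PSMD5 was hardly expressed, with 5, 21 and 12 reads in the knockdown libraries, against 10, 16 and 12 in the control libraries, although its exons overlap no other gene of the table. Per kilobase of exon the control mean was 0.0950 CPM for PSMD5, against 40.2 CPM for PSMD10 and 1.51 CPM for PSMD9.

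Promoter sequences are shown for the 3 genes with the lowest fold changes, for a lid gene that fell, for the gene that rose and for PSMB10 of the immunoproteasome. They run from 250 bases before to 50 after the start in RefSeq (GRCh38.p14), 5′ to 3′. Capitals mark matches on either strand to CCAAT, the box bound by NF-Y, to TGACNNNGC, the core of the antioxidant response element through which NFE2L1 acts, and to the interferon response element, here GAAA repeated after any 2 bases.
PSME3 (chr17:42833147-42833446, plus strand): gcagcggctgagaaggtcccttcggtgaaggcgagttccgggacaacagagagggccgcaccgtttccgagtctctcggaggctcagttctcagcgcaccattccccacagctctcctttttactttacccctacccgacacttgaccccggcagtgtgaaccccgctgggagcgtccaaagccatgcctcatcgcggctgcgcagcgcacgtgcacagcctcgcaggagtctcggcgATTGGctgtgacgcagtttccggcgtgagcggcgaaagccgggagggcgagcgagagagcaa
PSMC3 (chr11:47426390-47426689, minus strand): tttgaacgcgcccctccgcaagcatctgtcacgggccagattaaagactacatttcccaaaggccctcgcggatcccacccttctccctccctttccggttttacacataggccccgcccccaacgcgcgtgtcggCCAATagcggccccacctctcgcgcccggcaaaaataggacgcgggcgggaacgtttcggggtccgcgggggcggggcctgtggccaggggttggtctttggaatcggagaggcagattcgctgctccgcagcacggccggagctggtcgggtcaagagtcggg
PSMC5 (chr17:63827471-63827770, plus strand): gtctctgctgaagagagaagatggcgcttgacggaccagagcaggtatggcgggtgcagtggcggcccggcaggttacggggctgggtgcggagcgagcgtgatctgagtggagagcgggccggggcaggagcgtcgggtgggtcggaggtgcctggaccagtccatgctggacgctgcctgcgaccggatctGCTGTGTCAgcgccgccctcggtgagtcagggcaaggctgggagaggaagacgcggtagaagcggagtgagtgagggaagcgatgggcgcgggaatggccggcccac
PSMD3 (chr17:39980557-39980856, plus strand): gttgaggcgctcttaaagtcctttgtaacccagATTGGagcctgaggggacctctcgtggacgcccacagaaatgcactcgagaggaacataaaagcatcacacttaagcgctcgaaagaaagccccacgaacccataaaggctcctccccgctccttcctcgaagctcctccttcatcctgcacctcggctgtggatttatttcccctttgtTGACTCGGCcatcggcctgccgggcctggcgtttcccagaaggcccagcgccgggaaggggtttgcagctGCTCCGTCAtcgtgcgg
PSMG4 (chr6:3258697-3258996, plus strand): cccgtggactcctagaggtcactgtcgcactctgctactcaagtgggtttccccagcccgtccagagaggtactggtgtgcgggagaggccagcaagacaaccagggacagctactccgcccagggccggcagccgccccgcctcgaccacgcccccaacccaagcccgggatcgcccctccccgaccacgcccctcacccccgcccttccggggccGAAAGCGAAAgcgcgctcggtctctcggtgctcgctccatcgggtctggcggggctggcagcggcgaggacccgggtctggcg
PSMB10 (chr16:67936801-67937100, minus strand): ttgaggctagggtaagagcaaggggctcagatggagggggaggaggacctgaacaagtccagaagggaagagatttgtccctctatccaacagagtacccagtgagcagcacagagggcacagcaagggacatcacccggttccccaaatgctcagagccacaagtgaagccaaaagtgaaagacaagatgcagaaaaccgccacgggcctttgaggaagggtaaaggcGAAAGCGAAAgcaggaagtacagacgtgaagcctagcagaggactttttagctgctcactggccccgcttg
In PSME3 and PSMC3 the capitals are a CCAAT box, on the minus and plus strand of the gene. In PSMC5 they are the antioxidant element on the minus strand. This window begins downstream of another start of PSMC5, inside the gene. The window of that upstream start, not shown, holds a CCAAT box at base -10 and no antioxidant element. PSMD3 holds a CCAAT box on the minus strand and 2 antioxidant elements, 1 on each strand, and no matches overlap. In PSMG4 and PSMB10 the capitals are the interferon element, with the same letters in both genes.

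Windows were found for 42 of the 48 genes (51 windows, as some genes have several starts). CCAAT was in windows of 20 genes and in 39.2% of their windows, against 34.6% of all 34796 promoter windows of the same length. It was in 15 of the 32 windows of core and 19S genes, and these windows belong to 15 of the 26 such genes with a window. A share per gene over all genes was not computed. The antioxidant core was in 15 genes and in 29.4% of the windows, against 13.3% of all windows. In core and 19S genes it was in 7 of the 32 windows, from 7 of the same 26 genes, PSMA4, PSMB3, PSMC4, PSMC5, PSMD1, PSMD12 and PSMD3. In PSMA4 and PSMC5, which have several windows, the match was only in the most downstream one. The interferon element was in 7 genes and in 13.7% of the windows, against 3.57% of all windows. Those genes were PSMB8, PSMB10, PSME1, PSME2 and PSMG4, and the constitutive core genes PSMA4 and PSMB4. A match is a run of letters and was not tested as a binding site.

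Genes that control the proteasome or feed it were read from 5 further lists. Of 15 tested genes for transcriptional control edgeR called 0, limma-voom 0 and DESeq2 1, with 2 higher and 2 lower at an unadjusted p under 0.05, and with the block 2 rose and 2 fell. The counts with the block are near the shares of all tested genes, 11.2% higher and 14.9% lower. NFE2L1, the factor that raises proteasome genes when proteasome activity is short in mammalian cells, had 211, 199.9 and 244 CPM in the knockdown libraries, against 281, 310.5 and 416 CPM in the control libraries. All knockdown libraries were below all control libraries, and the adjusted p was 0.0571 without the block and 0.00125 with it (log2 fold change -0.62, SE 0.17, edgeR). SEL1L, an adaptor of protein disposal at the endoplasmic reticulum, had 153, 173 and 206 CPM in the knockdown libraries, against 226, 235 and 317 CPM in the control libraries (-0.55, 0.0858 and 0.00158 with the block). NFYA, a subunit of the CCAAT-binding factor, had 84.3, 69.5 and 65.2 CPM in the knockdown libraries, against 56.9, 52.0 and 50.9 CPM in the control libraries (0.45, 0.0761 and 0.00578 with the block). The groups were separate in SEL1L, lower in knockdown, and in NFYA, higher in knockdown. NFE2L2, the relative of NFE2L1 that answers oxidative stress, had a log2 fold change of -0.01.

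The 14 partners and assembly factors outside the PSM names had a median log2 fold change of -0.01. EdgeR called 0 of them, as did DESeq2 and limma-voom, with 2 higher and 1 lower at an unadjusted p under 0.05. With the block 3 rose and 1 fell, where 11.2% and 14.9% of all tested genes did, so that falls were not more frequent here. POMP, the maturation factor of the core, had 48.1, 49.7 and 39.2 CPM in the knockdown libraries, against 64.5, 43.2 and 50.3 CPM in the control libraries (log2 fold change -0.20, adjusted p 0.512, edgeR), and the value was 0.00483 without control replicate 1. UBLCP1, a phosphatase of the nuclear proteasome, had 31.2, 36.5 and 33.8 CPM in the knockdown libraries, against 25.8, 24.6 and 24.6 CPM in the control libraries (0.44, 0.0787 and 0.0149 with the block). UBE3C, a ubiquitin ligase on the proteasome, had 242, 251 and 211 CPM in the knockdown libraries, against 332, 297 and 294 CPM in the control libraries (-0.39, 0.0908 and 0.0139 with the block). The groups of POMP overlapped, and those of UBLCP1 and UBE3C did not. PITHD1 had 58.5, 47.9 and 40.8 CPM in the knockdown libraries, against 45.2, 29.2 and 33.0 CPM in the control libraries (0.46, 0.194 and 0.0103 with the block), and its groups overlapped. The ubiquitin receptor ADRM1 and SHFM1, which are subunits of the 19S particle under other names, had log2 fold changes of -0.08 and -0.03, and their groups overlapped. They are not among the base and lid genes counted above.

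Upstream of the proteasome, 1 of 12 tested genes that deliver substrates fell without the block (4.88% of all tested genes did). UFD1L, a partner of the segregase VCP, had 67.7, 57.6 and 59.3 CPM in the knockdown libraries, against 105, 78.9 and 86.0 CPM in the control libraries (log2 fold change -0.55, edgeR adjusted p 0.0510 and 0.00154 with the block). UBQLN1, a shuttle protein that binds ubiquitin chains, had 183, 197 and 182 CPM in the knockdown libraries, against 236, 224 and 232 CPM in the control libraries (-0.30, 0.131 and 0.0411 with the block). In UFD1L and UBQLN1 each knockdown library was below each control library. With the block 4 of the 12 fell and 1 rose, and the median was -0.23. For comparison, 14.9% of all tested genes fell and 11.2% rose with the block, and 26.4% of those with at least 32 CPM fell. Of the 6 ubiquitin and E1 genes 1 fell (2 with the block), read against the same shares. It was UBA1, the main enzyme that activates ubiquitin, with 193, 158 and 168 CPM in the knockdown libraries, against 288, 287 and 251 CPM in the control libraries. Its groups were separate (log2 fold change -0.67 with an SE of 0.13, edgeR adjusted p 0.0172), but removing knockdown replicate 2 or 3 or control replicate 1 ended the call. The polyubiquitin gene UBB had 612, 464 and 545 CPM in the knockdown libraries, against 842, 636 and 803 CPM in the control libraries (-0.49, 0.0945 and 0.00499 with the block), again with separate groups. UBA6, the other E1, had a log2 fold change of -0.23 (adjusted p 0.457).

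Of 20 tested genes of interferon signalling and antigen presentation, which act with the immunoproteasome, 2 rose and 1 fell, against 2.72% and 4.88% of all tested genes. With the block 6 rose and 3 fell (11.2% and 14.9% of all tested genes), and the median was 0.13. The falls were thus near the shares of all tested genes, while the rises, though few, were above them. The list was not tested as a set. IRF1, a transcription factor that induces PSMB8 and PSMB9 in interferon-treated cells, had 11.1, 10.9 and 9.52 CPM in the knockdown libraries, against 2.25, 3.96 and 4.65 CPM in the control libraries. It was higher in all 3 knockdown libraries (log2 fold change 1.53 with an SE of 0.26, edgeR adjusted p 0.0118), and the adjusted p was 0.0525 when knockdown replicate 2 was left out. JAK2, a kinase of interferon receptors, had 157, 117 and 115 CPM in the knockdown libraries, against 82.7, 55.4 and 73.0 CPM in the control libraries (0.88, adjusted p 0.0236), a call that ended on removing knockdown replicate 1 or 2 or control replicate 3. TAP1, the peptide transporter gene next to PSMB9, had 37.3, 41.7 and 31.2 CPM in the knockdown libraries, against 36.5, 33.7 and 30.7 CPM in the control libraries, with overlapping groups (0.13, adjusted p 0.645).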

How the data were processed

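The authors deposited raw counts of reads for each gene in each library. The submitters' processing notes name bcl2fastq, STAR 2.5, featureCounts, Subread 1.6.5, edgeR 3.20.8 and the hg38 build. Libraries came from Trizol-extracted RNA with an Illumina TruSeq kit, per the labels' protocols. The annotation release, the strand setting and the handling of reads on several genes are not given in the sources used here. All 63299 table rows name a gene.

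Counts were analysed here with edgeR 4.0.16 in R 4.3.3: TMM scaling, filterByExpr by group and a two-sided quasi-likelihood F test of knockdown against control over the whole table. The standard error is the log2 fold change divided by the square root of F. Alternatives were DESeq2 1.42.0, limma-voom (limma 3.58.1), other scalings, no filter, a replicate block and leaving out each library. Both edgeR fits were first run on simulated counts, each drawn from the model of that fit, so that the simulation cannot decide between them. Coding bases came from GENCODE 29 and overlaps from the exons in the table.

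The members and lists were chosen with earlier results of these data known. Described in full are the catalytic and immunoproteasome subunits and, in each role, the 3 genes with the smallest p, and 3 of each related list with NFE2L1, POMP and TAP1. SLC22A23, PSMA6, PSMD5 and others outside that rule were named after their values were seen, as was the 32 CPM level. Some genes that the rule names are not reported here.

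Each group's titles carry the numbers 1 to 3, and the design text describes biological replicates. Deviations from the group means correlated at 0.554, 0.381 and 0.358 between libraries of the same number, and at -0.39 to 0.06 between others, so the numbers were taken as pairs. Residual degrees of freedom were 4 without the block and 2 with it.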

Additional observations from a re-analysis of the deposited data

How the results depend on the processing

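With the replicate numbers as a block, which treats them as pairs, the numbers of genes called (without the block in brackets) were 2 (1) proteasome genes higher, 30 (6) proteasome genes lower, 3 (0) core alpha ring genes lower, 7 (0) core beta ring genes lower, 7 (3) 19S base genes lower, 8 (2) 19S lid genes lower, 4 (0) assembly chaperones called lower, 1 (0) activator and inhibitor genes higher, 3 (0) partner genes higher, 1 (0) partner genes lower, 2 (0) transcriptional control genes higher, 2 (0) transcriptional control genes lower, 1 (0) delivery genes higher, 4 (1) delivery genes lower, 2 (1) ubiquitin and E1 genes lower, 6 (2) antigen presentation genes higher, 3 (1) antigen presentation genes lower, 2358 (574) of all genes higher, 3148 (1029) of all genes lower. Without the filter on low counts they were 13 (6) proteasome genes lower, 1 (0) core alpha ring genes lower, 3 (0) core beta ring genes lower, 4 (2) 19S lid genes lower, 1 (0) assembly chaperones called lower, 2 (0) transcriptional control genes lower, 2 (1) delivery genes lower, 2 (1) ubiquitin and E1 genes lower, 5 (2) antigen presentation genes higher, 2 (1) antigen presentation genes lower, 1336 (574) of all genes higher, 1812 (1029) of all genes lower. With DESeq2 they were 4 (2) 19S lid genes lower, 1 (0) assembly chaperones called lower, 1 (0) transcriptional control genes lower, 2 (1) delivery genes lower, 4 (2) antigen presentation genes higher, 2 (1) antigen presentation genes lower, 898 (574) of all genes higher. With limma-voom they were 2 (1) antigen presentation genes lower. With RLE scaling they were 1 (2) 19S lid genes lower, 4 (2) antigen presentation genes higher. With library totals alone they were 1 (2) 19S lid genes lower, 1 (0) partner genes higher, 2 (0) transcriptional control genes higher, 0 (1) delivery genes lower, 4 (2) antigen presentation genes higher. Leaving out 1 library at a time gave 0 to 2 proteasome genes higher, 2 to 12 proteasome genes lower, 0 to 2 core beta ring genes lower, 1 to 4 19S base genes lower, 0 to 5 19S lid genes lower, 0 to 1 assembly chaperones called higher, 0 to 1 activator and inhibitor genes higher, 0 to 1 delivery genes lower, 0 to 2 ubiquitin and E1 genes lower, 0 to 2 antigen presentation genes higher, 0 to 2 antigen presentation genes lower, 168 to 500 of all genes higher, 329 to 923 of all genes lower. The other counts of called genes by role and by related list stayed within 1.5 times, and the cell marker lists were not recounted. The median log2 fold change of the 46 proteasome genes was -0.50 to -0.24 with 1 library left out, -0.24 without control replicate 1. The median log2 fold change of all genes moved by less than 0.1 under each scaling. With library totals alone it was 0.09, and that of the proteasome genes was -0.28, against 0.00 and -0.37 with TMM scaling. With 1 library left out the log2 fold change of PSMB8 was -0.0653 to 0.254, negative without knockdown replicate 2 or 3 or control replicate 2, and that of POMP -0.347 to 0.00483, positive without control replicate 1. The log2 differences of the ratios of inducible to constitutive subunits stayed above 0 whichever library was left out: 0.31 to 0.89 for PSMB8 over PSMB5, 0.98 to 1.63 for PSMB9 over PSMB6 and 0.48 to 0.87 for PSMB10 over PSMB7. Taken within pairs the mean differences are the same, and 0.5 added to each CPM gave 0.52, 0.92 and 0.66. The causes of these shifts were not tested. Fewer libraries also lower the power of the test. Depth limits PSMB8, PSMB9 and PSMD5, which held at most 37 reads in a library.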
